A study of Mus musculus with 4 samples.

Results

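The genes described here are 10 genes of bone morphogenetic protein (BMP) signalling, namely the ligands Bmp2, Bmp4 and Bmp6, the secreted antagonists Grem1, Nog and Chrdl1, and the target genes Id1, Id2, Id3 and Id4. They were chosen by gene name, with no rule on their signal, though earlier results of these data were known. They come from the 27827 gene names on a whole-genome Agilent mouse array, and 16 of its 41174 probes carry 1 of the 10 names. RNA came from 4 lines of mouse embryonic fibroblasts (MEFs), 2 of genotype Ip6k1+/+ and 2 of genotype Ip6k1-/-, and was hybridized as Cy3-labelled cRNA to 1 array per line. Each line was derived from a different embryo of 1 cross between heterozygous parents, taken at embryonic day 14, and every line, Ip6k1+/+ included, expresses SV40 large T antigen, with which the cells were immortalised. Cells were growing exponentially, without any treatment, and were passaged shortly after thawing. The comparison asks which transcripts differ when IP6K1, a kinase that makes inositol pyrophosphates, is missing. With 2 lines per genotype, the spread within a genotype is the spread between embryos, their immortalised cultures and their arrays, and it rests on a single difference.

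BMPs are secreted dimers of the TGF-beta superfamily that bind type I and type II receptor kinases, which phosphorylate Smad1, Smad5 and Smad9. These enter the nucleus with Smad4 and switch on target genes, among which the Id genes are the classical early ones. Id proteins have a helix-loop-helix domain but no DNA-binding region, so they pair with E proteins and keep them off DNA. Gremlin 1, noggin and chordin-like 1 bind BMPs outside the cell and keep them from their receptors. In fibroblasts and limb mesenchyme the pathway is known for guiding cells towards cartilage and bone.

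Signals are given as log2 of the background-corrected spot signal minus the 75th percentile of the array, so that 0 marks that percentile, and a probe's level is compared only between lines. The percentile stood at a signal of 607 to 746, and 52.0% to 55.5% of probes were well above background. The lowest signal well above background was between -5.19 and -4.67, depending on the array, and values below it have no reliable order. On probe A_51_P213766 the targeted gene Ip6k1 read 0.36 and 0.39 in the Ip6k1+/+ lines, whereas in Ip6k1-/- MEFs neither array measured it, and probe A_52_P413035 gave the same picture. Probe A_51_P103718 of Ip6k1 kept a measurable signal in Ip6k1-/- MEFs, at -1.98 and -1.22, against 2.46 and 2.61. All 8 fibroblast markers were well above background in every line, and so were 1 of 5 epithelial markers (Krt18), 1 of 4 endothelial (Kdr), 1 of 3 haematopoietic (Cd68) and 1 of 3 neural (Tubb3). None of the 3 skeletal muscle markers was in any line, nor were the defining markers Cdh1 of epithelium, Pecam1 and Cdh5 of endothelium and Ptprc of leukocytes. Kdr differed by 1.56 between the genotypes and did not overlap.

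Bmp4 signal differed more between lines of the same genotype than between the genotypes. For Bmp4, which drives early limb and tooth mesenchyme, probe A_51_P383741 (mm9, chr14:47003802-47003861) read 1.34 and -3.21 in Ip6k1+/+ replicates 1 and 2, and 2.01 and -5.43 in Ip6k1-/- replicates 1 and 2, the last value not well above background. Replicate 1 of each genotype was high and replicate 2 of each was low, and the Ip6k1+/+ values lay inside the range of the Ip6k1-/- values. Bmp4 signal was 23.3-fold higher in Ip6k1+/+ replicate 1 than in replicate 2, and at least 103-fold higher in Ip6k1-/- replicate 1 than in replicate 2, taking the dimmer line at the lowest signal that counts as measured on its array. Among all probes tested, with signals taken as recorded, 0.320% had an equally wide gap between the Ip6k1+/+ lines. The difference between genotypes was -0.77 with a 95% interval from -8.20 to 6.65 (limma adjusted p = 0.994). In such bulk RNA, fewer cells of a type and less RNA per cell cannot be told apart.

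Bmp2, a potent inducer of bone and cartilage, showed the same lines high. Its probe A_51_P185229 (mm9, chr2:133386981-133387040) read -4.57 and -7.34 in Ip6k1+/+ replicates 1 and 2, against 0.17 and -6.40 in Ip6k1-/- replicates 1 and 2, and both lines numbered 2 were not well above background. Ip6k1-/- replicate 1 thus stood alone with a clear signal, at least 28.7-fold above the other Ip6k1-/- line. Ip6k1+/+ replicate 1 was barely above background, at least 1.52-fold over its counterpart. Because neither genotype was measured in both of its lines, Bmp2 did not enter the test.

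The error within an array could be read for Bmp2 and Bmp4, whose probes are spotted 10 times each. The Bmp4 spots had an SD of 0.0527 in Ip6k1+/+ replicate 1, 0.112 in Ip6k1+/+ replicate 2 and 0.0178 in Ip6k1-/- replicate 1. In Ip6k1-/- replicate 2, where 0 of 10 Bmp4 spots were well above background, the SD was 0.592. For Bmp2, 9 of 9 spots kept were well above background in Ip6k1-/- replicate 1, between 0.11 and 0.21, and 9 of 10 were in Ip6k1+/+ replicate 1, between -5.18 and -4.10. Spots of 1 array share the RNA, labelling and hybridization of 1 line, so their spread gives the error within an array and not that of the genotype. With 1 array per line, the error between arrays could not be told apart from the difference between lines.

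**Figure D1:**
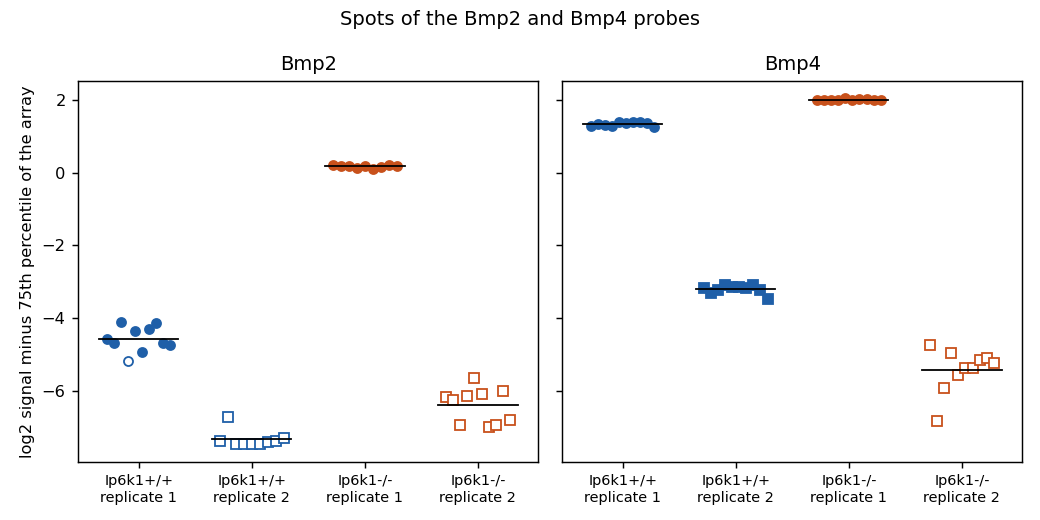
Signal of the repeated spots of the Bmp2 and Bmp4 probes, as log2 signal minus the 75th percentile of the array, for each of the 4 lines; bars mark the mean of the spots, open symbols are spots not well above background, and outlier spots are left out. Bmp4 spots of Ip6k1-/- replicate 1 lie at 2.01 on average and those of Ip6k1-/- replicate 2 at -5.43, with no overlap.

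Bmp6, the ligand known for its role in iron balance and in cartilage, gave the opposite layout, with the genotypes apart. Probe A_52_P413646 (mm9, chr13:38591479-38591538) read -3.36 and -4.00 in Ip6k1+/+ replicates 1 and 2, against -6.87 and -5.10 in Ip6k1-/- replicates 1 and 2, which were not well above background. Neither Ip6k1-/- line reached the range of the Ip6k1+/+ lines. Ip6k1+/+ MEFs had at least 2.05-fold more Bmp6 signal, and the fitted difference was -2.31 (standard error 0.69, adjusted p of limma 0.994). The probe entered the test only because it was measured in Ip6k1+/+ MEFs, so that a difference was built into its entry. With normexp background correction the difference was -0.54, which no longer amounts to 2-fold, and with dim values raised to the measurable limit it was -1.03. The other Bmp6 probe, A_52_P468441, whose sequence spans 15144 bases of genome at chr13:38561625-38576768 and so crosses at least 1 intron, stayed at background in all lines.

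The antagonists did not separate by genotype. Grem1, which encodes gremlin 1 and is a BMP antagonist of limb and fibroblasts, is read by probe A_52_P481957 (mm9, chr2:113589227-113589286) and was at -0.36 and 2.13 in Ip6k1+/+ replicates 1 and 2, against 1.89 and 2.89 in Ip6k1-/- replicates 1 and 2. The low Ip6k1+/+ replicate 1 set it apart from the other 3 lines, and Ip6k1+/+ replicate 2 lay between the Ip6k1-/- lines. The mean difference of 1.51 (standard error 0.89, limma adjusted p = 0.994) passed the 2-fold rule, which asks for means that differ by 1 or more on the log2 scale and for a distance of 0.9 or more, in that direction, between the Ip6k1+/+ mean and either Ip6k1-/- line. Without Ip6k1+/+ replicate 1 it was 0.26, and without Ip6k1+/+ replicate 2 it was 2.75.

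Nog, which encodes noggin, was measured in every line by probe A_51_P237040 (mm9, chr11:89162849-89162908). It read -2.53 and -3.55 in Ip6k1+/+ replicates 1 and 2, against -3.16 and -3.18 in Ip6k1-/- replicates 1 and 2, both inside the range of the former. The difference was -0.13, with a 95% interval from -1.30 to 1.04, so that a change of somewhat over 2-fold in either direction lies within the error.

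Chrdl1, on the X chromosome, has 3 probes. Probe A_52_P674808 (mm9, chrX:139731809-139731868) was measured in every line, at -0.60 and -3.10 in Ip6k1+/+ replicates 1 and 2, against -0.40 and -2.53 in Ip6k1-/- replicates 1 and 2. As for Bmp4, replicate 1 of each genotype was the higher line, by 5.67-fold in Ip6k1+/+ and 4.38-fold in Ip6k1-/- MEFs. Probe A_52_P600975 (chrX:139722183-139722242) had the same order, at -3.08 and -5.20 in Ip6k1+/+ and at -3.10 and -4.56 in Ip6k1-/- MEFs, with the replicate 2 lines not well above background. Probe A_52_P621905 stayed at background in all lines. The difference on the measured probe was 0.39 (standard error 1.10, limma adjusted p = 0.994).

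**Figure D2:**
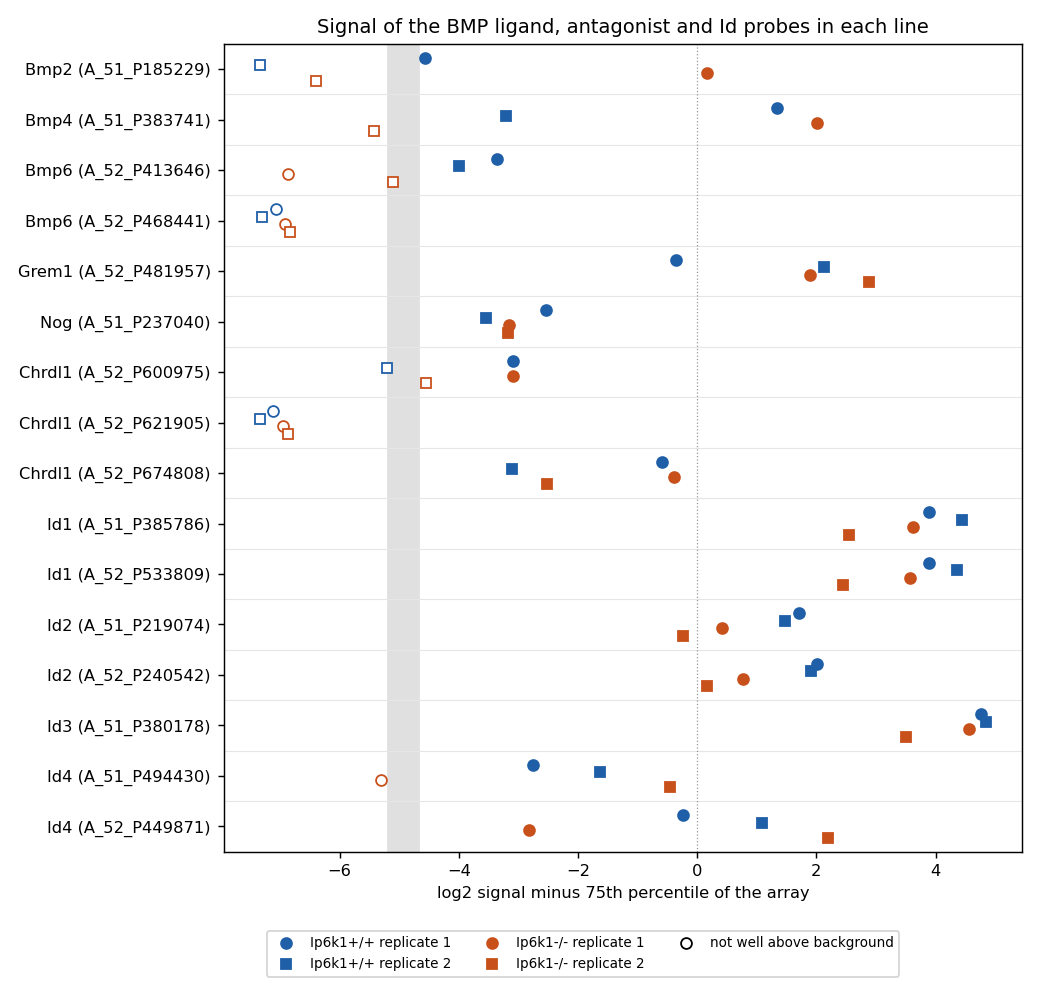
Log2 signal minus the 75th percentile of the array (horizontal axis) for the 16 probes of the 10 genes, in each of the 4 lines; open symbols are probes not well above background, and the grey band spans the lowest measured signal of the 4 arrays. Bmp2, Bmp4 and Chrdl1 are split by line, from -5.43 to 2.01 for Bmp4, whereas both Ip6k1-/- lines lie left of both Ip6k1+/+ lines for Id1, Id2 and Id3.

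Among the target genes, Id1, Id2 and Id3 lay lower in both Ip6k1-/- lines on every probe. Id2, widely expressed in mesenchyme, read 2.02 and 1.91 in Ip6k1+/+ replicates 1 and 2, against 0.76 and 0.16 in Ip6k1-/- replicates 1 and 2 on probe A_52_P240542 (mm9, chr12:25778904-25778963). On probe A_51_P219074, whose 60 bases spread over 348 bases of genome (chr12:25780183-25780530) and so cross a gap, it read 1.71 and 1.47 in Ip6k1+/+ and 0.42 and -0.24 in Ip6k1-/- MEFs. The genotypes did not overlap on either probe. The Ip6k1+/+ lines lay close together, while the Ip6k1-/- lines differed by 0.60 and 0.66. The probes do not share bases and gave differences of -1.50 (standard error 0.28) and -1.50 (standard error 0.31), with a signal 2.83-fold and 2.82-fold higher in Ip6k1+/+ MEFs. The unadjusted limma p was 0.00370 and 0.00543, and the adjusted p was 0.994 for both.

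Id1, the classical direct BMP target, was at 3.88 and 4.44 in Ip6k1+/+ replicates 1 and 2, against 3.62 and 2.54 in Ip6k1-/- replicates 1 and 2 on probe A_51_P385786 (mm9, chr2:152563036-152563095). Probe A_52_P533809 shares 50 bases with it and is not a separate measurement. It read 3.89 and 4.36 in Ip6k1+/+ and 3.57 and 2.45 in Ip6k1-/- MEFs. Ip6k1-/- replicate 1 was just under the lower Ip6k1+/+ line, and most of the distance came from replicate 2. The differences were -1.09 (standard error 0.43) and -1.12 (standard error 0.43), both with a limma adjusted p of 0.994, and without Ip6k1-/- replicate 2 the difference on the first probe was -0.55.

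Id3 showed the same layout on probe A_51_P380178 (mm9, chr4:135700075-135700249), at 4.76 and 4.85 in Ip6k1+/+ replicates 1 and 2, against 4.55 and 3.51 in Ip6k1-/- replicates 1 and 2. The Ip6k1+/+ lines were close together, Ip6k1-/- replicate 1 was slightly below them and replicate 2 was well below. The difference of -0.78 (standard error 0.38, limma adjusted p = 0.994) had a 95% interval from -1.77 to 0.22, and it was -0.25 without Ip6k1-/- replicate 2.

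Id4, known from neural and bone precursors, behaved unlike the other Id genes. Probe A_52_P449871 (mm9, chr13:48358668-48358727) read -0.25 and 1.09 in Ip6k1+/+ replicates 1 and 2, against -2.82 and 2.20 in Ip6k1-/- replicates 1 and 2, so that the lowest and the highest line were both Ip6k1-/-. Its signal was 32.5-fold higher in Ip6k1-/- replicate 2 than in replicate 1, a gap that 0.454% of all probes tested matched with signals taken as recorded. Probe A_51_P494430 (chr13:48359180-48359239) had the same order of lines, at -2.75 and -1.64 in Ip6k1+/+ and at -5.32, not well above background, and -0.45 in Ip6k1-/- MEFs. In each genotype Id4 was higher in replicate 2, the line in which Bmp4 and Chrdl1 were lower. The differences between genotypes were -0.73 (standard error 1.70) and -0.69 (standard error 1.65), both with a limma adjusted p of 0.994, and without Ip6k1-/- replicate 1 they were 1.78 and 1.75.

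The promoter windows of Id2, Id3 and Id4 are shown because Id2 and Id3 were lower in both Ip6k1-/- lines while Id4 was not. RefSeq promoters of build GRCm38.p6, from 250 bases before to 50 bases after the start, were at hand for 6 of the 10 genes, Bmp4, Bmp6, Grem1, Id2, Id3 and Id4. Capitals mark GGCGCC, the core of known BMP response elements, and CAGAC or its reverse complement GTCTG, the Smad box, searched on both strands; the motifs do not overlap. The windows are chr12:25096043-25096342 (minus strand) for Id2, chr4:136143572-136143871 (plus strand) for Id3 and chr13:48260866-48261165 (plus strand) for Id4.
Id2: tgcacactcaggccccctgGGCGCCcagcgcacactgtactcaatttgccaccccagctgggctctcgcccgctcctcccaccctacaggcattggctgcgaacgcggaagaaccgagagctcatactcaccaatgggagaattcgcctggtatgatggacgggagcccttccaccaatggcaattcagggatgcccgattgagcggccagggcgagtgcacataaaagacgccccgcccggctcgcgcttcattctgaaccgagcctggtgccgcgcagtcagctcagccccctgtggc
Id3: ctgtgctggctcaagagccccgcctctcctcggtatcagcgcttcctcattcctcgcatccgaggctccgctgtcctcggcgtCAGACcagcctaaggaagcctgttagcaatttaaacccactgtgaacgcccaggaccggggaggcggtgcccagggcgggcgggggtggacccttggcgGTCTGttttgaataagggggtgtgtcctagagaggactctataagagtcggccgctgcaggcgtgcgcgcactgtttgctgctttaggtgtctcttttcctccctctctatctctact
Id4: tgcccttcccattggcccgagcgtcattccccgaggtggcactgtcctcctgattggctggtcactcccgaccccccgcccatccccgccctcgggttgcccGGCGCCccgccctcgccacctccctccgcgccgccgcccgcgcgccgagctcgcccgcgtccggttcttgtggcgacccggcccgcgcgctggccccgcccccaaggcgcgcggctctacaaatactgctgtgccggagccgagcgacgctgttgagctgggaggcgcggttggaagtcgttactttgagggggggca
GGCGCC was present once in the Id2 window, starting 231 bases before the start, once in that of Id4, 148 bases before it, and once in that of Grem1, 78 bases before it. It was in no other of the 6 windows, and 11.9% of all 32851 promoters hold it. The Smad box was found 2 times in the Id3 window, at 167 and 68 bases before the start, 2 times in that of Grem1, at 219 bases before and 18 bases after it, once in that of Bmp6, at 119 bases before it, and not in those of Id2, Id4 and Bmp4, beside 49.6% of all promoters. The motifs therefore did not group Id2 with Id3. The Id2 and Id4 windows also hold CCAAT or its reverse complement ATTGG, 3 times and 2 times, as do 37.4% of all promoters, and the Id3 window does not. The GC content was 63.3% for Id2, 60.0% for Id3 and 73.3% for Id4, beside a median of 52.7% over all promoters. A match of letters is a description and not a binding site.

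Across the 10 genes, 12 of the 16 probes, for 9 genes, entered the test, and 9 probes were well above background in every line. None of the 12 was called at an adjusted p of 0.05 in limma, as was the case for all but 0.0139% of the 21573 probes tested. The unadjusted p was under 0.05 for 3 of the 12, the Id2 probes and the Bmp6 probe, beside 3.35% of all probes. The Bmp6 probe entered through Ip6k1+/+ MEFs alone, which built in its difference, so each count is also given over the 9 probes measured in every line, where 2 had an unadjusted p under 0.05, beside 2.78% of such probes on the array. By the 2-fold rule 4 of the 12 differed, beside 2.96% of all probes. Of these, 1 probe was higher in Ip6k1-/- MEFs, that of Grem1, beside 1.05% of all probes, and 3 were lower, those of Id2 and Bmp6, beside 1.91%. Of the 9 probes, 1 was higher and 2 were lower, beside 1.83% in both directions together. With 1 Ip6k1-/- line left out, more probes passed the rule, both of the 10 genes and over the whole array. The genotypes did not overlap for 6 of the 12 probes, those of Id1, Id2, Id3 and Bmp6, all lower in Ip6k1-/- MEFs, beside 31.2% of all probes without overlap and 12.8% without overlap and lower. With 1 Ip6k1-/- line left out, the number of these probes without overlap also rose. A lone line lies outside the range of 2 others more easily, on any probe. Of the 9 probes, which stand for 7 genes, 5 did not overlap, for the 3 genes Id1, Id2 and Id3, beside 30.6% of such probes. Id2 enters these probe counts with both of its probes. Over 1 probe per gene, 2 of the 9 genes tested had an unadjusted limma p under 0.05, Id2 and Bmp6, beside 3.67% of all genes. By the 2-fold rule 1 of the 9 genes was higher and 2 were lower, beside 3.16% of all genes in both directions together. The genotypes did not overlap for 4 of the 9 genes, or 44.4%, beside 31.1% of all genes. With signals taken as recorded, the wider gap between lines of a genotype exceeded the difference between genotypes for 7 of the 12 probes and for 81.0% of all probes tested. The median difference over 1 probe per gene was -0.77 for the 9 genes tested and 0.04 for all genes. The value of -0.77 is that of Bmp4, whose limma interval ran from -8.20 to 6.65 and whose difference was 0.0085 with normexp. Bmp4 and Bmp6 entered the test through Ip6k1+/+ MEFs alone, so part of the negative median may be built in. On the brightest probe of each, the 7 genes measured in every line differed by -1.50 (Id2), -1.09 (Id1), -0.78 (Id3), -0.73 (Id4), -0.13 (Nog), 0.39 (Chrdl1) and 1.51 (Grem1). The middle value of -0.73 is that of Id4, with a standard error of 1.70. A shift of the set was not tested.

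**Figure D3:**
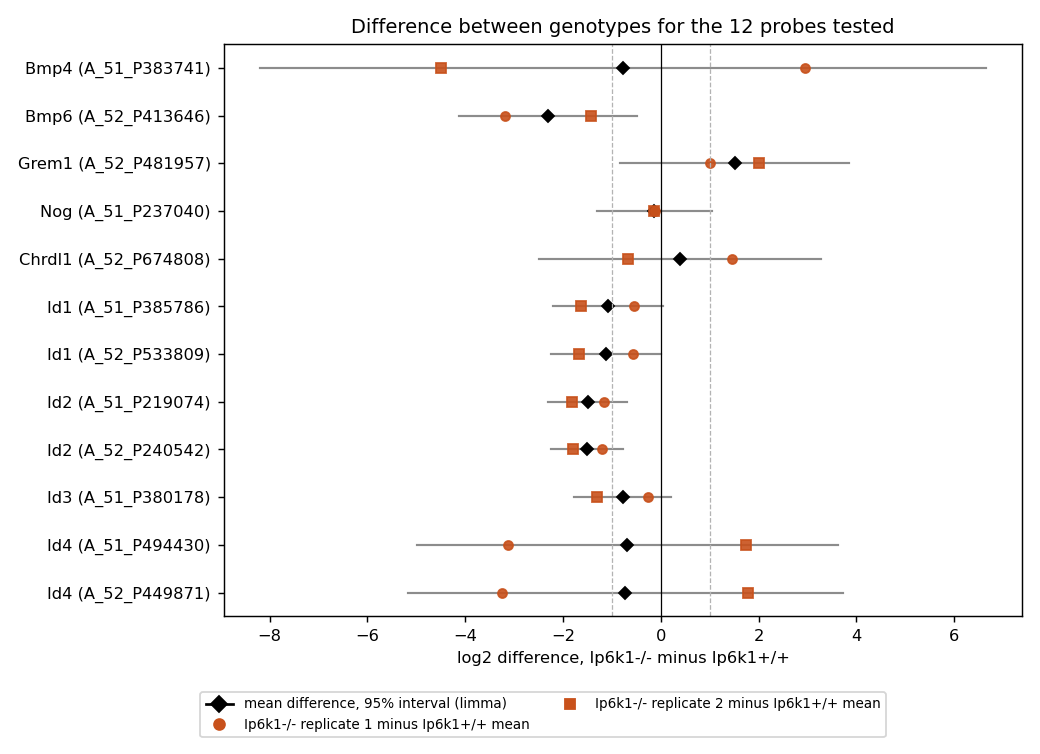
Log2 difference between Ip6k1-/- and Ip6k1+/+ MEFs for the 12 probes tested, with the 95% interval of the limma fit (grey lines), and each Ip6k1-/- line against the Ip6k1+/+ mean (orange symbols); dashed lines mark a 2-fold difference. The Ip6k1-/- lines lie on the same side of 0 for Bmp6, Grem1, Nog, Id1, Id2 and Id3 and on opposite sides for Bmp4, Chrdl1 and Id4.

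The rest of the pathway was examined by role, on 63 further genes with 1 probe each, of which 40 were tested. By the 2-fold rule 1 was higher, Tll1, and 2 were lower, Bmpr1b and Hey1, which makes 7.5% of the 40, beside 3.16% of the 14541 genes tested. None was called at an adjusted p of 0.05 in limma, and 4 had an unadjusted p below that level, or 10%, beside 3.67% of all genes. The genotypes did not overlap for 8, or 20%, beside 31.1% of all genes. Their median difference was -0.08. Of the 12 other BMP and GDF ligands, only Bmp8a, at a difference of 0.62, and Gdf5, at 0.01, could be tested, and 7 were not well above background in any line.

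Of the 7 receptors, 5 were tested. The type I receptor Bmpr1b read -2.96 and -1.69 in Ip6k1+/+ replicates 1 and 2, against -4.49 and -4.27 in Ip6k1-/- replicates 1 and 2. Both Ip6k1-/- lines lay lower, and the means differed by -2.06 on the log2 scale (standard error 0.52, limma adjusted p = 0.994). The Ip6k1-/- values were close to the lowest signal well above background on their arrays, -4.75 and -4.67, so the size of the Bmpr1b difference is uncertain. The differences were -0.44 for the type I receptor Bmpr1a, 0.01 for the type I receptor Acvr1, 0.06 for the type II receptor Bmpr2 and -0.60 for the type II receptor Acvr2a, whose genotypes did not overlap. Among co-receptors, Rgma, which binds BMPs at the membrane, read 2.24 and 2.41 in Ip6k1+/+ and 0.26 and 1.62 in Ip6k1-/- MEFs, a difference of -1.39. Bambi, a decoy receptor without a kinase, read 1.30 and 1.61 in Ip6k1+/+ and 1.92 and 2.68 in Ip6k1-/- MEFs, a difference of 0.84. The genotypes did not overlap for either. The co-receptors Rgmb and Eng differed by -0.32 and 0.44, with overlap.

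Between the genotypes, the signal transducers lay closer together. The differences were -0.13 for Smad1, 0.02 for Smad5, -0.12 for the common partner Smad4, -0.15 for the inhibitory Smad6 and 0.05 for the inhibitory Smad7, and none of the 7 tested Smad and Smurf genes separated the genotypes. Smad6 was higher in replicate 1 of each genotype, at 1.84 and 0.09 in Ip6k1+/+ and at 1.29 and 0.34 in Ip6k1-/- MEFs. Smad9 was well above background on 1 array only and was not tested. The E proteins, partners of the Id proteins, differed by 0.04 for Tcf3, -0.21 for Tcf4 and -0.18 for Tcf12.

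Among the other antagonists and modulators, 14 of 18 were tested. Tll1, a protease that cuts chordin, read -2.55 and -1.50 in Ip6k1+/+ and -0.05 and -0.58 in Ip6k1-/- MEFs, which differ by 1.71 (standard error 0.46, limma adjusted p = 0.994) with both Ip6k1-/- lines higher. Fst, which encodes follistatin, was split by line in the same way as Bmp4, at 1.11 and -4.74 in Ip6k1+/+ and at 0.59 and -2.14 in Ip6k1-/- MEFs. The antagonist Nbl1 differed by -0.56, with overlap.

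Of the 10 other BMP-induced genes, 5 were tested, and their differences ran from -3.14 to 0.17, with a median of -0.64. That median is the value of Msx1, whose limma interval ran from -6.72 to 5.44. Msx2 entered the test through Ip6k1+/+ MEFs alone, so part of its lower value may be built in. Hey1, a transcriptional repressor that answers both BMP and Notch signals, read 3.0 and 1.05 in Ip6k1+/+ and 0.61 and -2.84 in Ip6k1-/- MEFs. Both Ip6k1-/- lines were again lower, and the means differed by -3.14 on the log2 scale (standard error 1.31, limma adjusted p = 0.994). The homeobox genes Msx1 and Msx2 were split by line as Bmp4 was. Msx1 read 2.66 and -2.75 in Ip6k1+/+ and 1.64 and -3.0 in Ip6k1-/- MEFs. Msx2 read 1.59 and -2.82 in Ip6k1+/+ and -0.51 and -5.12 in Ip6k1-/- MEFs, the last not well above background. Atoh8, a helix-loop-helix factor, read 1.03 and -3.48 in Ip6k1+/+ and -1.54 and -1.81 in Ip6k1-/- MEFs.

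Cartilage and bone markers were also unequal between the lines. Of 5 markers, 4 were well above background in every line, and Sp7, the defining factor of osteoblasts, was in none. Their summed level was 3.01 and 1.47 in Ip6k1+/+ and 1.52 and -1.27 in Ip6k1-/- MEFs. Sox9, the cartilage regulator, read 1.67 and 1.04 in Ip6k1+/+ and 1.08 and -2.75 in Ip6k1-/- MEFs, and Col2a1, the cartilage collagen, read 2.16 and -1.10 in Ip6k1+/+ and -1.07 and -3.18 in Ip6k1-/- MEFs. For both, and for the cartilage proteoglycan Acan, the lowest line was Ip6k1-/- replicate 2, as it was for Id1, Id2, Id3 and Hey1. That line was also the lowest for Bmp4, Msx1, Msx2 and the fibroblast markers Pdgfra and Col3a1, among others. For Grem1 and Id4 it was the highest. The share of all probes with this lowest line was not computed. Bglap, which encodes osteocalcin, went the other way from Sox9, Col2a1 and Acan. It read -4.49 and -4.12 in Ip6k1+/+ and -3.68 and -3.84 in Ip6k1-/- MEFs. The summed level of the fibroblast markers was 8.89 and 8.86 in Ip6k1+/+ and 8.76 and 8.65 in Ip6k1-/- MEFs. Its brightest members were saturated on 3 or 4 arrays, which limits how far the sum can vary. Single fibroblast markers were unequal between lines. Thy1 read 1.42 and 6.02 in Ip6k1+/+ and 3.98 and 5.52 in Ip6k1-/- MEFs. Pdgfra read 0.21 and -2.19 in Ip6k1+/+ and -1.08 and -2.33 in Ip6k1-/- MEFs. Among the fibroblast markers, Pdgfrb, a growth factor receptor, differed by -1.20 and passed the 2-fold rule, and the collagen gene Col3a1 differed by -1.26, both without overlap. The part of these markers in the Id, Hey1 and Bmp differences was not tested.

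**Figure D4:**
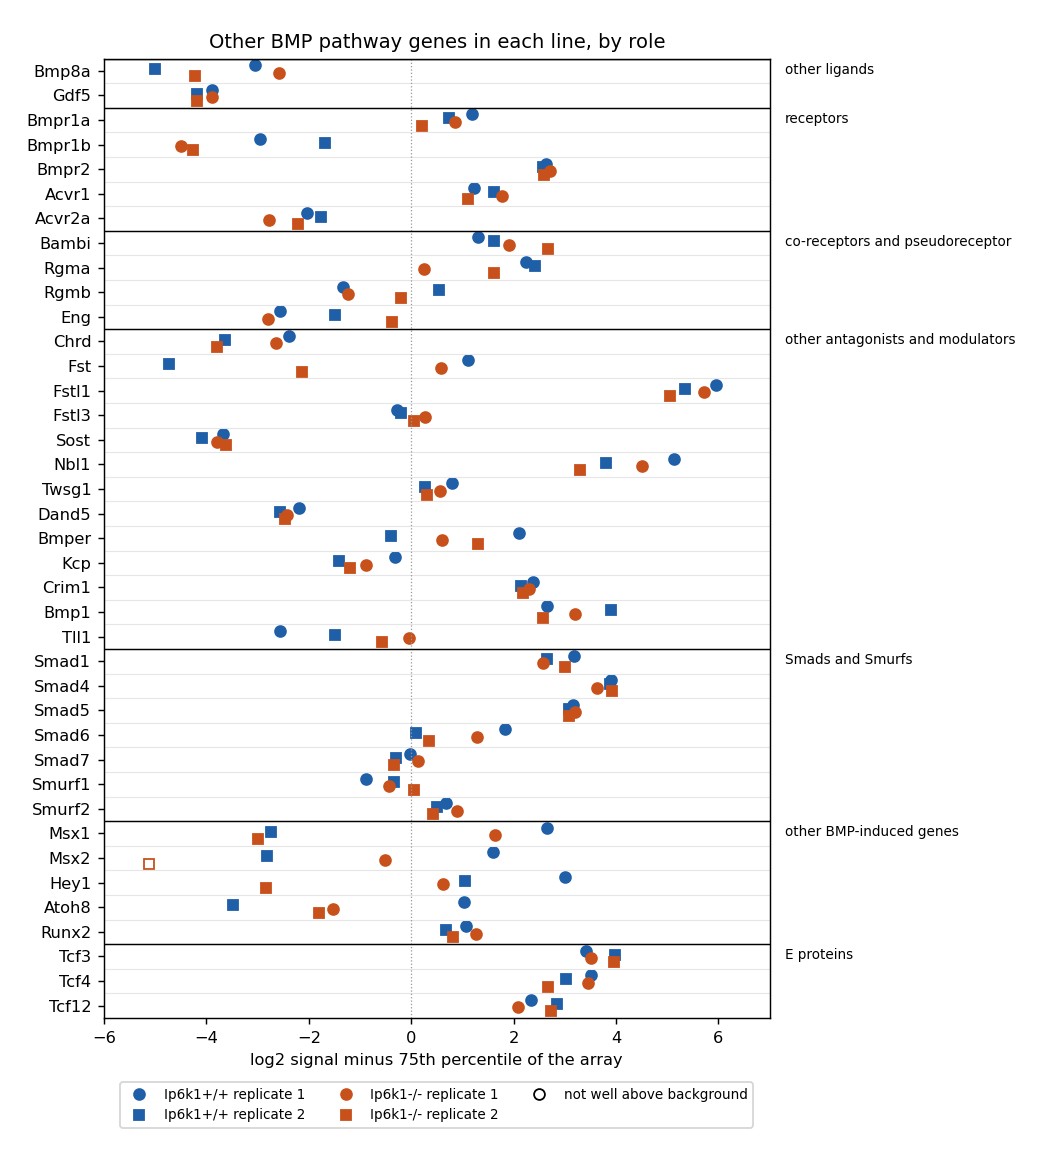
Log2 signal minus the 75th percentile of the array (horizontal axis) for the other BMP pathway genes tested, except 1 that is not reported here, grouped by role, in each of the 4 lines. Smad4 and Smad5 lie close together in all lines, Fst, Msx1 and Msx2 are split by line, and Bmpr1b and Hey1 are lower in both Ip6k1-/- lines.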

How the data were processed

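The authors extracted spot intensity with Agilent Feature Extraction 10.5.1.1, per the file headers, with background subtracted and probe coordinates on mm9. They also deposited log2 values shifted to the 75th percentile in GeneSpring GX, which lie 0.08 to 0.10 above those used here.

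Here spots with an outlier flag (96 to 133 per array) were left out, the 75th percentile of log2 signal was subtracted, and spots of a probe were averaged. A probe was well above background where at least 0.5 of its spots were. In limma 3.58.1 (R 4.3.3), lmFit and eBayes (trend) were run on the 21573 probes that passed this on every array of either genotype, with Benjamini-Hochberg adjustment, after being tested on simulated data. An "at least" fold sets the brighter mean against the lowest signal well above background, or the dim probe's own where higher. All arrays lay on 1 slide, and their number limits the precision.

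Genes named are Ip6k1, the 10 genes, each tested receptor, Smad and E protein, and up to 4 genes with the widest difference per other list, except 1 gene that is counted but not reported here. Symbols came from the files and, for 25097 of 41174 probes, a RefSeq table of GRCm38.p6. Genes and lists were chosen with earlier results of these data known. The alternatives were other background corrections, normalizations, filters, fold rules and tests, the deposited values, a block on replicate number, and fits without each array.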

Additional observations from a re-analysis of the deposited data

How the results depend on the processing

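No probe of the 10 genes was called by limma under any alternative run, and 1 was at the threshold of the methods' t-test before adjustment and none after Benjamini-Hochberg adjustment. Of 165 further values of tested probes, 157 kept their direction and 8 turned, and of 44 values of probes that were not tested, 41 kept it and 3 turned, those of Bmp2 (-0.45 without Ip6k1-/- replicate 1) and of Chrdl1 on A_52_P600975 (-0.74 without Ip6k1+/+ replicate 2 and -0.41 without Ip6k1-/- replicate 1). The filters, the block and the fit without a variance trend leave a probe's difference unchanged, so these values could not turn. All turns except that of Bmp4 with normexp came from leaving out 1 array. With normexp, Bmp4 was at 0.0085. Without 1 array, Bmp4 ranged from -4.49 to 2.95, Nog from -0.64 to 0.37, Chrdl1 on A_52_P674808 from -0.86 to 1.64, and Id4 from -3.12 to 1.75 and from -3.24 to 1.78 on its probes. Leaving out arrays gave 3 to 10 probes of the 10 genes past the 2-fold rule, 5 to 10 other pathway genes (6 by mean difference alone), and 8 to 11 probes without overlap.

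Over the whole array, 639 probes passed the 2-fold rule, 244 with normexp, 1360 without the filter, 365 over probes above background on all 4 arrays, 1287 by mean difference alone, and 1137 to 2668 without 1 array. Lower probes were 64.6% of them, and 77.9% with normexp, 76.3% without Ip6k1+/+ replicate 1, 50.7% without Ip6k1-/- replicate 1 and 44.4% without Ip6k1-/- replicate 2. Limma called 3 probes, 1 without the filter or over probes above background on all 4 arrays, and 0 with normexp, quantile normalization, the floor, or without any 1 array, where 698, 774, 698 and 932 to 1702 probes had an unadjusted p below 0.05. The methods' t-test gave 839 before and 0 after adjustment. The cause of these shifts was not tested. Without 1 array, the lone line of a genotype is assumed to vary like the other genotype's lines. Lines share only a replicate number: with replicate number as a block, limma called 3 probes and none of the 10 genes, the Id2 adjusted p was 0.250, and the gaps between replicates 1 and 2 had a correlation of 0.48 over probes between the genotypes. Median normalization moved the median difference of all tested probes from 0.05 to 0.10.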
